A study of Mus musculus with 8 samples.

Results

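Ribosome biogenesis starts in the nucleolus, where RNA polymerase I transcribes the ribosomal DNA into a long precursor RNA. Small nucleolar ribonucleoproteins (snoRNPs) then guide the methylation and pseudouridylation of this precursor, and assembly factors cut and fold it into the small and large ribosomal subunits. The process takes a large share of the energy of growing cells and is driven in many tissues by MYC, and its disturbance is known to stabilise p53. The genes described here were a list of 40 nucleolar and ribosome biogenesis genes, matched by gene name, out of 40840 genes in the deposited tables. All 40 were present and all 40 passed the filter on low counts, so none was left out. They were read in 6 role groups, namely RNA polymerase I transcription (5 genes), nucleolar scaffold and regulatory proteins (7), the box C/D snoRNP (4), the box H/ACA snoRNP (3), small subunit assembly (11) and large subunit assembly (10).

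The cells were mouse primary hepatic stellate cells (HSCs), liver cells that store vitamin A, taken from male wild-type C57BL/6J animals aged 15 to 18 weeks. Kept for 7 days in culture, they turned into myofibroblastic cells (pMF-HSCs) on their own. The Control group received the vehicle DMSO, and the OGTi group received 50 µM OSMI-1 over a period of 24 h. OSMI-1 is a small molecule inhibitor of OGT (O-GlcNAc transferase), which attaches single O-GlcNAc sugars to nuclear and cytoplasmic proteins. Each group held 4 libraries, and a Control and an OGTi library of the same replicate number formed a culture pair. The comparison asks what a day of OGT inhibition does to transcripts of already activated cells, with 1 dose, 1 time point and 1 compound, so an effect of OSMI-1 other than on OGT cannot be told apart from the loss of OGT activity. Since the libraries were made from polyadenylated RNA, the precursor and mature ribosomal RNAs were not measured, and fewer cells and less RNA per cell cannot be told apart.

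Each library held between 30068876 and 37372420 expected counts, and OGTi replicate 4 stood apart with a count in 23746 genes against 19035 to 20293 in the other 7. Of 13 stellate cell and myofibroblast markers, all had a mean of at least 1 TPM (a level that allows for transcript length, scaled to the library's total), with a summed level of 7370 to 15000 TPM in Control and 5900 to 15300 TPM in OGTi. Among them Pdgfrb, Hgf and Lrat were called lower in OGTi. The 8 endothelial markers each averaged below 1 TPM over the 8 libraries, with Tek (1.14 TPM in Control and 0.103 TPM in OGTi) and Lyve1 called lower in OGTi. Of 8 hepatocyte markers 7 averaged below 1 TPM, Hnf4a was at 0 in every library, Cyp2e1 was called higher (0.05 TPM in Control and 0.745 TPM in OGTi), and the sum of 197 to 306 TPM in Control and 210 to 257 TPM in OGTi was almost all Ass1. Macrophage markers summed to 23.8 to 45.7 TPM in Control and 32.3 to 71.6 TPM in OGTi with Ptprc, Adgre1, Clec4f and Vsig4 averaging below 1 TPM, although Vsig4 reached 2.79 TPM in Control replicate 3, and Cd68 was called higher. Cholangiocyte and epithelial markers summed to 95.4 to 161 TPM and 57.8 to 111 TPM, with Epcam and Cdh1 averaging below 1 TPM, Krt19 called lower and Sox9 called higher. The part of any of these shifts in the results below was not tested.

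Promoter windows were read from the GRCm39 genome, from 250 bases before to 50 bases after the start of each gene's main transcript in GENCODE M39. They are shown for the 3 genes with the deepest fall, for Ubtf, the 1 gene that rose, and for Nop56, a gene with no call that holds the E-box CACGTG bound by MYC. Capitals mark CACGTG, or CCAAT read on either strand, and each sequence runs 5′ to 3′ on the strand of its gene.

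Polr1b, chr2:128942653-128942952 (+ strand): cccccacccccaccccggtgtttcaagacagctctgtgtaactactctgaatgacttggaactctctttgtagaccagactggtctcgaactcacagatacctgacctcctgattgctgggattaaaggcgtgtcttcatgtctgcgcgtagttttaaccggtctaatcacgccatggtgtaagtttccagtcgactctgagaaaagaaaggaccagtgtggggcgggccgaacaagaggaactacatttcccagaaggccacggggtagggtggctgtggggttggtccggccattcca
Polr1a, chr6:71885771-71886070 (+ strand): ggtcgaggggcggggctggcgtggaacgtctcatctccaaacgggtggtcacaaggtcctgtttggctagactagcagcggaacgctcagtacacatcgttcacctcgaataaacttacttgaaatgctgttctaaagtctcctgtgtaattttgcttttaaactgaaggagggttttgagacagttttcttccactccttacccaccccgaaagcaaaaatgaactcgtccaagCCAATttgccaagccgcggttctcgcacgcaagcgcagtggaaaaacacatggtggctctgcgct
Utp20, chr10:88662650-88662949 (- strand): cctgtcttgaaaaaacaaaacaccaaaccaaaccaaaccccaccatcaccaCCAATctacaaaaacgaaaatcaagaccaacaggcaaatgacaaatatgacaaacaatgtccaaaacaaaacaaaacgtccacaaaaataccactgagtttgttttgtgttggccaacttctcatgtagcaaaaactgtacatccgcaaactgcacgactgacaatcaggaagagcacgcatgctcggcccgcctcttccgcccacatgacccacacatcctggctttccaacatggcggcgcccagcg
Ubtf, chr11:102209873-102210172 (- strand): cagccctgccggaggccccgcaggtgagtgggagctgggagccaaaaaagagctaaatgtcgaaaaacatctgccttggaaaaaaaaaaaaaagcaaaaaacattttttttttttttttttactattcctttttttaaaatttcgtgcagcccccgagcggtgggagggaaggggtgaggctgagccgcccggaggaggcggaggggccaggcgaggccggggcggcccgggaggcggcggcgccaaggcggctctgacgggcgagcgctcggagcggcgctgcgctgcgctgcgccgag
Nop56, chr2:130115585-130115884 (+ strand): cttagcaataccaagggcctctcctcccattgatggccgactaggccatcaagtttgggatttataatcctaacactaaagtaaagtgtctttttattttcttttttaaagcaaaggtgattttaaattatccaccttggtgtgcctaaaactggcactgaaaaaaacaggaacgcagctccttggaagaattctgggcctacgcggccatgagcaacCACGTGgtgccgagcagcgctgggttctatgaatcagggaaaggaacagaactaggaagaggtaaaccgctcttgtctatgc

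The E-box CACGTG stood in 8 of the 40 windows (20%), against 9.38% of the windows of 14875 tested genes. The 8 genes were Rrn3, Fbl, Nop56, Wdr43, Nop2, Rrs1, Pes1 and Ebna1bp2, and none of them was called changed. In Nop56 the match began 32 bases before the start, and Rrn3 held 2 matches. The ETS core CCGGAAG, counted on both strands, was found in 12 windows (30% against 13.6%), again in no gene that was called changed. CCAAT was found in 12 windows (30% against 38.8%), including those of Polr1a, Utp20 and Dkc1. The match in Polr1a began 15 bases before the start, and that in Utp20 began 199 bases before it. The letters GCATGCGC, the core bound by NRF1, were in none of the 40 windows and in 4.37% of all. The motifs were chosen after the values of the genes had been seen, and the matches depend on the start used. In RefSeq windows of the same length on GRCm38.p6, which covered 35 of the 40 genes, 8 held CACGTG (22.9% against 10.4%). These were Mybbp1a, Nop2, Pes1, Rrn3, Tsr1, Utp20, Utp4 and Wdr43, of which Utp20 was called lower. Nop56, Fbl, Rrs1 and Ebna1bp2 were not among them, so the genes with a match changed with the windows used.

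OSMI-1 changed a small number of the 40 genes, and not all in 1 direction. Utp20, Polr1a, Polr1b, Dkc1 and Bysl were lower in OGTi and Ubtf was higher, while 34 genes did not pass the test (edgeR's quasi-likelihood test blocked by culture pair, called where the p adjusted after Benjamini-Hochberg over 19963 genes was 0.05 or less). The 5 genes called lower made up 12.5% of the 40, next to 10.2% of all genes tested. The 1 gene called higher made up 2.5%, next to 8.13%. The share that fell was thus near the background and the share that rose was below it. The median log2 fold change was -0.18 over the 40 genes and 0.01 over all genes, with 28 of the 40 below 0. With limma on log2(TPM + 1) 8 of the 40 genes were called lower (20%, next to 17.3% of all genes) and none higher by adjusted p (next to 5.99%), and the median was -0.50 over the 40 genes and -0.10 over all. With 0.1 added instead, 8 were lower (next to 17.4% of all genes) and none higher (next to 6.19%). Scaling by library totals gave 5 lower (next to 14.6%) and 1 higher (next to 6.29%), and DESeq2 gave 5 lower (next to 14.4%) and 2 higher (next to 13.8%). Groups that did not overlap were seen for 4 genes with OGTi lower (10%, next to 12.0% of all genes) and for 1 gene with OGTi higher (2.5%, next to 11.5%). The p-values of edgeR rest on how the difference within pairs varied over these 4 culture pairs, with a variance estimate shared in part across genes.

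**Figure D1:**
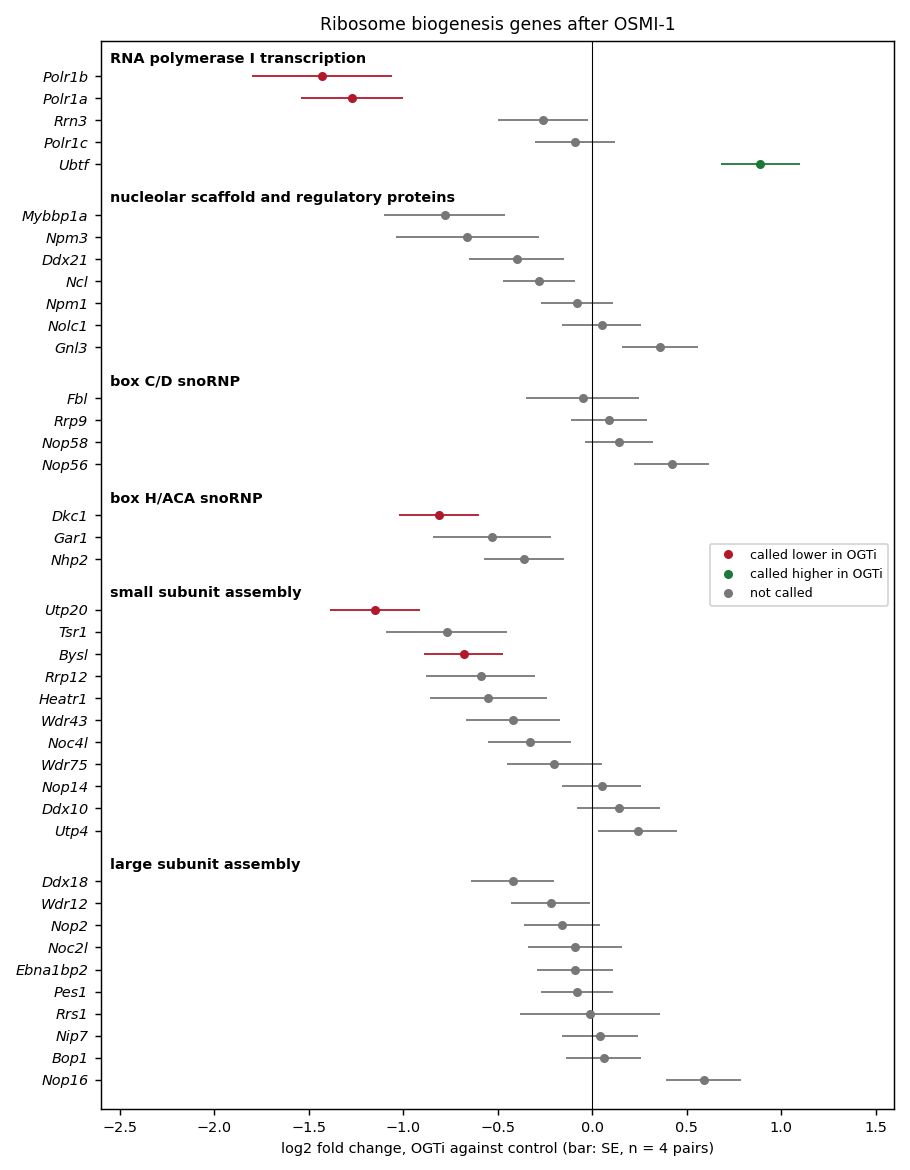
Log2 fold change of each of the 40 genes in OGTi against Control (points) with its standard error (bars), n = 4 culture pairs, ordered by role group. Red marks the 5 genes called lower, green the 1 called higher and grey the 34 not called. The 2 lowest points are Polr1b at -1.43 and Polr1a at -1.27, and Ubtf is the highest at 0.89.

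Of the 5 genes of RNA polymerase I transcription, 2 were called lower and 1 was called higher, next to 10.2% and 8.13% of all genes. Polr1a and Polr1b encode the largest and the second largest subunit of RNA polymerase I, which together form its catalytic centre, and both transcripts fell. Ubtf encodes the upstream binding factor that coats active ribosomal DNA, and its transcript rose. Rrn3, the initiation factor that brings the polymerase to the promoter, and Polr1c, a subunit shared with RNA polymerase III, did not pass the test.

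Polr1a (chr6:71886021-71961919, GRCm39) had 1696, 1001, 1623 and 2519.5 scaled counts in Control replicates 1 to 4 and 424, 725, 602.5 and 1107 in OGTi replicates 1 to 4, where scaled counts are expected counts divided by the normalised library size and brought to the mean size. It was lower in each pair, and only OGTi replicate 4 reached above the lowest control, so the groups overlapped. Its log2 fold change was -1.27 ± 0.27 (SE, n = 4 pairs; 95% interval -1.87 to -0.67; adjusted p = 0.00998), so that it fell by 58.6%. Without pair 3 the log2 fold change was -1.21 with an adjusted p of 0.0519.

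Polr1b (chr2:128942903-128970214) had 1028, 936, 909 and 1389 scaled counts in the 4 Control libraries and 129, 609, 457 and 587 in the OGTi libraries. All 4 OGTi values lay under all 4 Control values, and OGTi replicate 1 lay far below the other 3. The log2 fold change was -1.43 ± 0.37 (95% interval -2.24 to -0.61; adjusted p = 0.0229). It was -0.95 without pair 1 (adjusted p = 0.0247), and without pair 4 the adjusted p was 0.079. The fit without the pair block gave -1.26 with an adjusted p of 0.0569.

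Ubtf (chr11:102195386-102210568) had 1861, 2009, 2047 and 1924 scaled counts in Control and 2722, 3098, 4585 and 4524.5 in OGTi. The controls were tighter than for any other of the 40 genes, with a coefficient of variation of 4.28%, and on scaled counts each OGTi library lay above all of them. The log2 fold change was 0.89 ± 0.21 (95% interval 0.41 to 1.37; adjusted p = 0.0172), an increase of 85.7%. It passed the threshold without pair 1 or pair 2, but not without pair 3 (0.80, adjusted p = 0.11) or pair 4 (0.79, adjusted p = 0.0742). On the TPM scale OGTi replicate 1, at 20.66, lay below all 4 Control libraries (20.88, 22.28, 23.43 and 21.8), and the other 3 OGTi libraries lay above them. The TPM means were 22.1 ± 1.06 in Control and 33.5 ± 9.58 in OGTi (SD, n = 4), and limma on log2(TPM + 1) gave a difference of 0.53 with an adjusted p of 0.0986.

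Rrn3, the gene of this group with the highest level per length, had 9479.8, 6167, 7017.5 and 8560.5 scaled counts in Control and 4489.8, 6785, 8068 and 6869 in OGTi. The groups overlapped, with OGTi lower in pairs 1 and 4 and higher in pairs 2 and 3 (log2 fold change -0.26, 95% interval -0.80 to 0.28, adjusted p = 0.514). Polr1c gave -0.09 (95% interval -0.56 to 0.39).

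**Figure D2:**
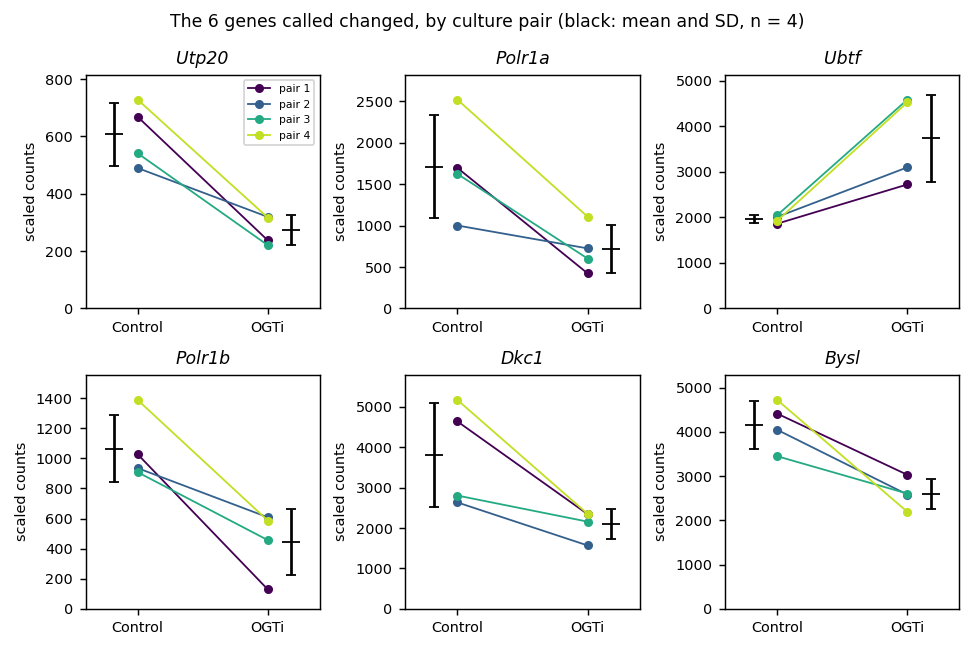
Scaled counts of the 6 genes called changed in Control and OGTi libraries, with a line joining the 2 libraries of each culture pair, and the mean and SD of each group in black (n = 4). Every line falls for Utp20, Polr1a, Polr1b, Dkc1 and Bysl and rises for Ubtf. OGTi replicate 1 of Polr1b is at 129 scaled counts.

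No gene of the nucleolar scaffold and regulatory group was called among 7 by edgeR or DESeq2, with 1 (Mybbp1a) at an unadjusted p under 0.05, log2 fold changes between -0.78 and 0.36 and a median of -0.28. Npm1 encodes nucleophosmin, which with nucleolin (Ncl) builds much of the granular nucleolus, and had the highest level per length of all 40 genes at 435 ± 95.1 TPM in Control and 329 ± 59.9 TPM in OGTi (SD, n = 4). Its scaled counts were 12283, 10581, 9977 and 15965 in Control and 15965, 8890.2, 9361 and 12672 in OGTi, and the groups overlapped (log2 fold change -0.08, 95% interval -0.51 to 0.36, adjusted p = 0.839). Npm1 has processed copies elsewhere in the genome, so its value depends on how the authors' counting shared reads among them. Mybbp1a, a nucleolar protein that binds MYB and represses ribosomal RNA synthesis, was lower in each pair at -0.78 ± 0.32 and did not pass the test (adjusted p = 0.122). Without pair 1 Mybbp1a was at -0.35, and with no filter on low counts it passed the test (adjusted p = 0.0195). Gnl3, which encodes the nucleolar GTPase nucleostemin, was higher in each pair on scaled counts at 0.36 ± 0.20 and did not pass the test either (adjusted p = 0.261). The remaining members were Npm3, at only 63.1 scaled counts in Control (-0.66 ± 0.38), the RNA helicase Ddx21 (-0.40 ± 0.25), Ncl (-0.28 ± 0.19) and the snoRNP chaperone Nolc1 (0.05 ± 0.21).

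The box C/D snoRNP, which methylates the ribose of ribosomal RNA, had no call among 4 genes by edgeR or DESeq2, none at an unadjusted p under 0.05, and a median of 0.11. Nop56, one of its 2 paralogous scaffold proteins, had 13979.8, 7972, 8822 and 13565 scaled counts in Control and 17645, 9545, 17304 and 14534 in OGTi. It was higher in each pair on scaled counts, and the groups overlapped (log2 fold change 0.42 ± 0.20, 95% interval -0.04 to 0.87, adjusted p = 0.192). Its paralog Nop58 gave 0.14 ± 0.18 (adjusted p = 0.67). The methyltransferase Fbl gave -0.05 ± 0.30, and Rrp9, which belongs to the U3 particle, gave 0.09 ± 0.20.

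The box H/ACA snoRNP converts uridine to pseudouridine, and all 3 of its genes had fold changes below 0, as did 9940 of all 19963 genes tested. Of the 3 genes 1 was called lower (33.3%, next to 10.2% of all genes). Dkc1 (chrX:74139460-74155456) encodes dyskerin, the pseudouridine synthase of the particle and a partner of telomerase RNA. It had 4640.4, 2635, 2805 and 5174 scaled counts in Control and 2345, 1569, 2158 and 2352 in OGTi. All OGTi values lay below all Control values, and Control replicates 1 and 4 stood well above replicates 2 and 3. The log2 fold change was -0.81 ± 0.21 (95% interval -1.28 to -0.34; adjusted p = 0.024), so that it fell by 43.1%. The call was lost without pair 2 (adjusted p = 0.0732), pair 3 (0.0508) or pair 4 (0.104) and without the pair block (0.0507). Nhp2, a core protein of the same particle, had 4948, 3824, 3259.7 and 4752 scaled counts in Control and 4132, 3147, 3261 and 2521 in OGTi. Its groups overlapped (log2 fold change -0.36 ± 0.21, adjusted p = 0.281), and with limma on log2(TPM + 1) it was called lower (-0.69, adjusted p = 0.0382). Gar1 was low, at 5.28 ± 1.28 TPM in Control and 2.88 ± 0.512 TPM in OGTi. It was lower in each pair at -0.53 ± 0.31 and did not pass the test (adjusted p = 0.273).

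Small subunit assembly had 2 genes called lower among 11 (18.2%, next to 10.2% of all genes) and a median of -0.42, next to 0.01 over all genes. Utp20 (chr10:88582469-88662699) encodes a very large scaffold protein of the small subunit processome and had the lowest adjusted p of the 40 genes. It had 669, 489.8, 541 and 728 scaled counts in Control and 238, 319, 221 and 317 in OGTi. The highest OGTi library lay below the lowest Control library. Its log2 fold change was -1.15 ± 0.24 (95% interval -1.69 to -0.62; adjusted p = 0.009), so that it fell by 54.98%, and without pair 3 the adjusted p was 0.0576. Per length it was also the lowest of the 40 genes, at 3.44 ± 0.624 TPM in Control and 1.26 ± 0.362 TPM in OGTi.

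Bysl (chr17:47910256-47922469) encodes bystin, which binds the small subunit precursor from early processing to export. Its scaled counts were 4414, 4048, 3450.3 and 4724 in Control and 3029, 2583, 2605 and 2193 in OGTi. The groups did not overlap, and the log2 fold change was -0.68 ± 0.21 (95% interval -1.13 to -0.22; adjusted p = 0.0455). This call was the nearest to the threshold. It was lost without pair 2, 3 or 4 (adjusted p of 0.121, 0.113 and 0.17) with upper-quartile scaling (0.11) and when the trend of counts with gene length was removed (0.0999).

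Among the other 9 small subunit genes, Utp4 had the highest level per length, at 96.8 ± 16.7 TPM in Control. It had 4487, 3562, 3251 and 4728 scaled counts in Control and 4669, 4451, 5225 and 4397 in OGTi, and the groups overlapped (log2 fold change 0.24 ± 0.21, adjusted p = 0.478). Utp4, Heatr1, Wdr43 and Wdr75 belong to the subcomplex that binds the nascent precursor first, and their fold changes were spread from -0.55 for Heatr1 to 0.24 for Utp4, with Wdr43 at -0.42 and Wdr75 at -0.20. These values moved with single pairs. Heatr1 was at -0.89 without pair 2 and -0.31 without pair 4, and without pair 1 Wdr43 was at -0.16 and Wdr75 at 0.06. The late factors Tsr1 (-0.77 ± 0.32, adjusted p = 0.13) and Rrp12 (-0.59 ± 0.29, adjusted p = 0.195) were lowest in OGTi replicate 1, and without pair 1 they were at -0.36 and -0.24. With no filter on low counts Tsr1 passed the test (adjusted p = 0.0359). Noc4l was lower in each pair at -0.33 ± 0.22, and its partner Nop14 gave 0.05 ± 0.21. With limma on log2(TPM + 1) Noc4l was called lower (-0.65, adjusted p = 0.0359). The helicase gene Ddx10 gave 0.14 ± 0.22.

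Large subunit assembly had no call among 10 genes by edgeR, against 1 by DESeq2 and 1 at an unadjusted p under 0.05, which in both cases was Nop16, and its median was -0.08. Nop16, a factor of the early large subunit precursor, had the highest level per length of this group and the lowest adjusted p of the 34 genes without a call. It had 6124, 4509, 4108 and 5423 scaled counts in Control and 8358, 5794, 8861 and 7301 in OGTi. It was higher in each pair on scaled counts, and OGTi replicate 2 lay below Control replicate 1. The log2 fold change was 0.59 ± 0.20 (95% interval 0.13 to 1.04; adjusted p = 0.0754), and it passed the threshold with DESeq2, with upper-quartile scaling and with edgeR's own expression filter.

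Pes1, Bop1 and Wdr12, which form the PeBoW complex needed to mature the long large subunit RNAs, stayed close together at -0.08 (95% interval -0.49 to 0.34), 0.06 (-0.38 to 0.50) and -0.22 (-0.69 to 0.25). The RNA methyltransferase Nop2 gave -0.16 ± 0.20, the helicase Ddx18 gave -0.42 ± 0.22, and Ebna1bp2, Noc2l and Nip7 gave -0.09, -0.09 and 0.04. With limma on log2(TPM + 1) Ddx18 was called lower (-0.73, adjusted p = 0.0332). Rrs1, which helps to bring the 5S RNA particle to the large subunit, had the widest spread among controls. It had 1685, 4184, 2837 and 627 scaled counts in Control, a coefficient of variation of 65.5%, and 2697.5, 1594, 2135 and 1286.5 in OGTi. No direction could be read for Rrs1 (log2 fold change -0.01, 95% interval -0.84 to 0.82).

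**Figure D3:**
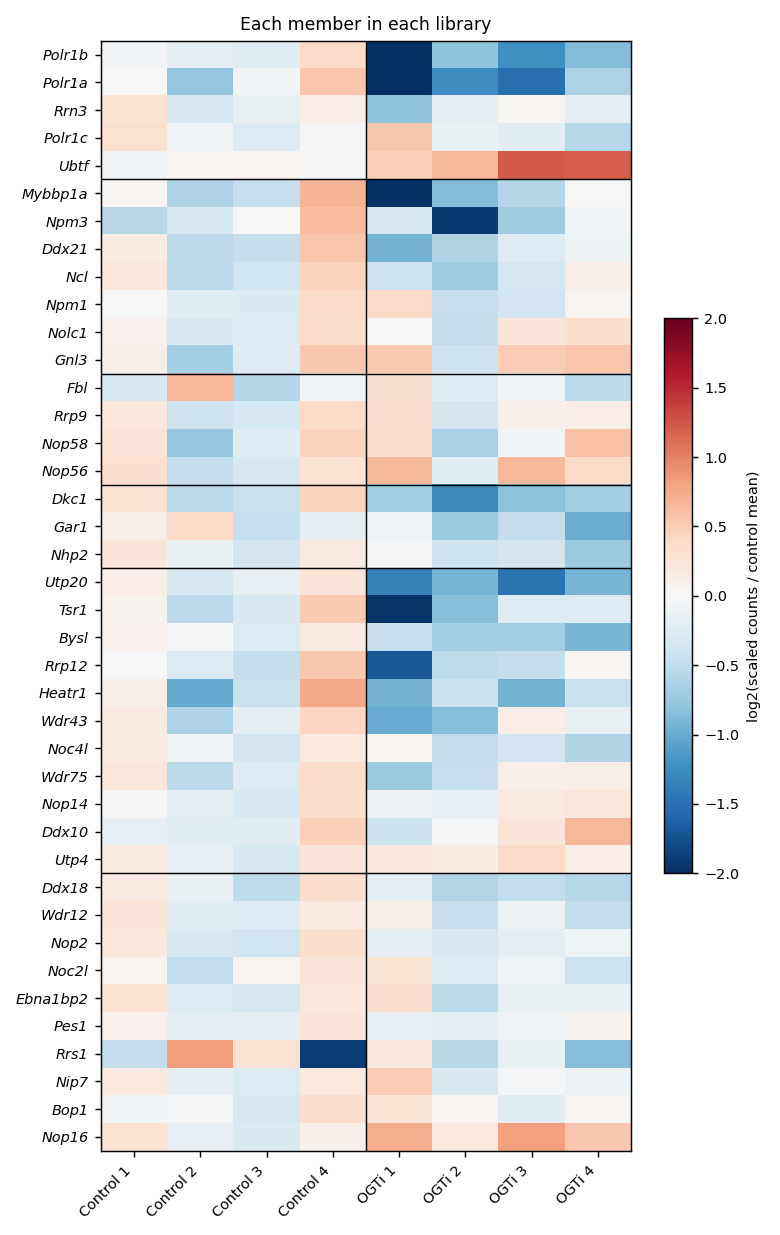
Log2 ratio of scaled counts to the mean of the 4 Control libraries, for the 40 genes (vertical axis, role groups divided by lines) in the 8 libraries (horizontal axis), where values beyond the ends of the colour scale take the end colour. Most genes are redder in Control replicates 1 and 4 than in Control replicates 2 and 3, and Polr1b, Polr1a, Mybbp1a, Tsr1 and Rrp12 are darkest blue in OGTi replicate 1.

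Within culture pairs, 8 genes were lower in OGTi in all 4 pairs (20%, next to 21.5% of all genes). These were the 5 called genes with Mybbp1a, Gar1 and Noc4l. Another 5 were higher in all 4 pairs (12.5%, next to 19.4%), namely Ubtf, Gnl3, Nop56, Nop58 and Nop16, and 27 were mixed. These counts are on scaled counts. On TPM 25 of the 40 genes were lower in all 4 pairs (62.5%, next to 32.4% of all genes), among them the same 8 genes and also Ncl, Npm1 and Nop2. None was higher in all 4 pairs on TPM (next to 11.8% of all genes), and 15 were mixed. The pairs did not move alike. The median log2 ratio over the 40 genes was -0.17 in pair 1, -0.19 in pair 2, 0.12 in pair 3 and -0.45 in pair 4, while over all genes it lay between -0.03 and 0.03. Of the 40 genes 33 were lower in pair 4, 26 in pair 2, 24 in pair 1 and 13 in pair 3. Over all genes 47.7% were lower in pair 4, 49.2% in pair 2, 48.5% in pair 1 and 51.2% in pair 3.

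The spread among controls was shared across the genes. Control replicates 1 and 4 both lay above replicates 2 and 3 in 33 of the 40 genes (82.5%), next to 16.9% of all genes tested. The 7 genes without this order were Ubtf, Npm3, Fbl, Gar1, Rrs1, Bop1 and Noc2l. The same order in the OGTi libraries was found in 9 of the 40 (22.5%, next to 13.7%). The order was noticed after the values had been seen, and genes of a library are not independent of each other. Myc, which drives many of these genes in growing cells, had 6700.5, 4721, 5018 and 8548 scaled counts in the 4 Control libraries, with replicates 1 and 4 again above the other two. In OGTi it had 5477, 3481, 5607 and 7347, where replicate 1 lay below replicate 3. Whether Myc had a part in the order of the controls was not tested.

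The 40 genes summed to 0.527%, 0.392%, 0.383% and 0.588% of the counts in Control replicates 1 to 4 and to 0.391%, 0.352%, 0.376% and 0.397% in OGTi. The means were 0.472% ± 0.101 and 0.379% ± 0.0201 (SD, n = 4), and OGTi was lower in each pair. The OGTi values lay in a narrow band around Control replicates 2 and 3, and the drop was largest in pairs 1 and 4, whose controls were highest. On scaled counts, which allow for the change in composition, the sums were 157930.0 ± 36687 in Control and 145252 ± 18644 in OGTi, and OGTi was lower in pairs 1, 2 and 4 and higher in pair 3. The median coefficient of variation over the 40 genes was 25.2% in Control and 25% in OGTi, against 18.2% and 27.7% over 10717 genes with at least 100 scaled counts.

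**Figure D4:**
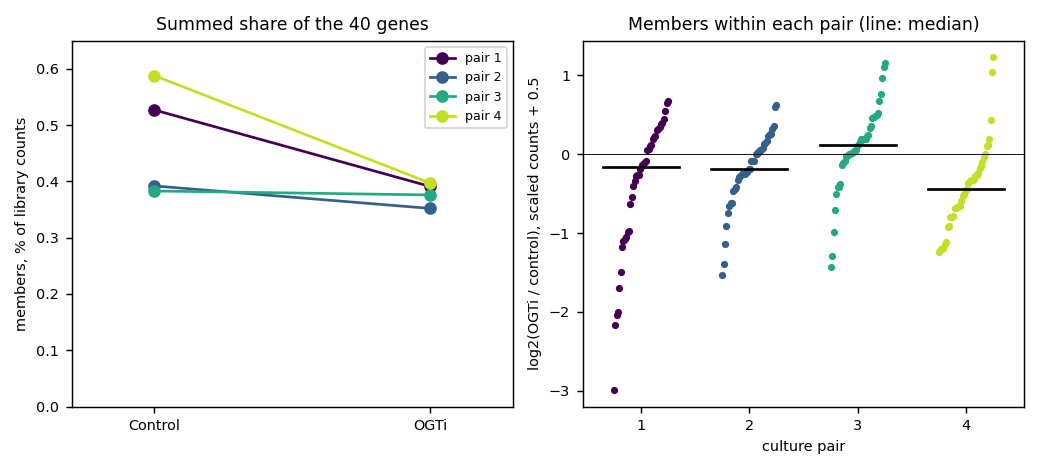
Left, the 40 genes' summed percentage of library counts in Control and OGTi, a line for each culture pair. Right, the log2 ratio of OGTi to Control scaled counts (0.5 added) of each gene within each pair, sorted, with the median as a bar. The share falls most in pairs 1 and 4, from 0.527% and 0.588%, and the median is above 0 only in pair 3.

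Longer genes of the list had lower fold changes. Across the 40 genes Spearman's rho between effective length and log2 fold change was -0.392, and it was -0.122 across all 19963 genes, which share the same libraries. The 10 longest, with 3744 to 8599 bases, had a median of -0.57 with 3 genes called lower and 1 called higher. The 10 shortest, with 630 to 1807 bases, had a median of -0.08 and no call. Over all genes of any length 10.2% were called lower and 8.13% higher, and shares by length were not counted. With the length trend of each library removed, Polr1a (-1.09), Polr1b (-1.24), Dkc1 (-0.83) and Utp20 (-1.08) were still called lower and Ubtf (1.09) higher, while Bysl (-0.51) was not called. The 4 genes lower then stood next to 12.0% of all genes, and the 1 higher next to 8.85%.

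Calls among further genes of ribosome biogenesis depended on the processing. Over 8 lists of related genes, 7 of 159 were called lower (4.4%, next to 10.2% of all genes) and 4 were called higher (2.52%, next to 8.13%). The number called lower was 20 with library totals alone (12.6%, next to 14.6% of all genes), 20 with the length trend removed (12.6%, next to 12.0%), and 33 or 34 with limma on TPM (20.8% or 21.4%, next to 17.3% or 17.4%). It was 5 with upper-quartile scaling, where the share over all genes was not counted. Limma on TPM changed the unit and the test together. In the TMM fit, of 10 other RNA polymerase I and promoter factors none was lower and Taf1a, a subunit of the promoter selectivity factor, was higher (0.87 ± 0.27, adjusted p = 0.0462). The polymerase I subunit genes listed in the files as Twistnb, Cd3eap and Znrd1 gave 0.27, -0.02 and -0.09. None of 10 other snoRNP genes was called by edgeR, where 2 had an unadjusted p under 0.05 and DESeq2 called 1. None of 42 other small subunit factors was called by edgeR either, where 6 had an unadjusted p under 0.05 and DESeq2 called 2. Of 46 other large subunit factors 2 were lower, Pelp1 (-0.93 ± 0.26, adjusted p = 0.0334) and Rrp1b (-0.81 ± 0.24, adjusted p = 0.0427).

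Of these 8 lists, the RNA exosome and precursor trimming list had the most calls, with 4 of 17 lower (23.5%, next to 10.2% of all genes), none higher and a median of -0.36. Exosc8, a subunit of the exosome ring, had 1589, 1161, 1113 and 1113 scaled counts in Control and 807, 601, 442.5 and 296 in OGTi (log2 fold change -1.29 ± 0.24, adjusted p = 0.00548). The nuclear exosome cofactors C1d (-1.13 ± 0.23, adjusted p = 0.00786) and Mphosph6 (-1.12 ± 0.23, adjusted p = 0.00861) and the nuclear exonuclease Exosc10 (-0.81 ± 0.22, adjusted p = 0.0299) were lower as well. For all 4 genes the OGTi libraries lay below the Control libraries.

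In the MYC network 1 of 11 genes was called lower by edgeR (9.09%, next to 10.2% of all genes) and none higher, 3 had an unadjusted p under 0.05, and DESeq2 called Mycn lower and Mlx higher. The lowest fold change was that of Mycl, at -2.82 without a call (adjusted p = 0.145). Mycn fell from 279.8, 153, 413 and 275 scaled counts in Control to 61.4, 44.7, 53 and 65.5 in OGTi, with no overlap (log2 fold change -2.25 ± 0.29, adjusted p = 0.00101). Myc, at 141 ± 39.8 TPM in Control against 5.80 ± 2.29 TPM for Mycn, gave -0.20 ± 0.19 and did not pass the test (adjusted p = 0.537). Of 8 genes of the 5S particle and p53 surveillance 2 were called higher (25%, next to 8.13% of all genes), while the other 6, at -1.01 and above, were below 0 without a call and the median of the list was -0.22. Hexim1, which binds the elongation factor P-TEFb, rose by 0.92 ± 0.24 (adjusted p = 0.0232). The p53 target Cdkn1a, which encodes the cyclin-dependent kinase inhibitor p21, rose by 0.66 ± 0.18 (adjusted p = 0.0297) from 48904, 43535, 58826 and 70080.4 scaled counts to 104262, 62762, 91737 and 91188. It was higher in each pair, and the groups overlapped. Of 15 non-coding snoRNA host genes Snhg3 was called higher, at 236, 203, 192.5 and 215 scaled counts in Control and 939, 542, 531 and 575.5 in OGTi (1.57 ± 0.23, adjusted p = 0.0018).

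Of 80 genes of the cytosolic ribosomal proteins, the products that the assembly factors put together with ribosomal RNA, none was called by edgeR or DESeq2, 4 had an unadjusted p under 0.05, and the median was 0.09. Of 78 mitochondrial ribosomal protein genes 6 were lower (7.69%, next to 10.2%) and 1 was higher (1.28%, next to 8.13%), with a median of -0.04, and DESeq2 called 8 lower and 3 higher.

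**Figure D5:**
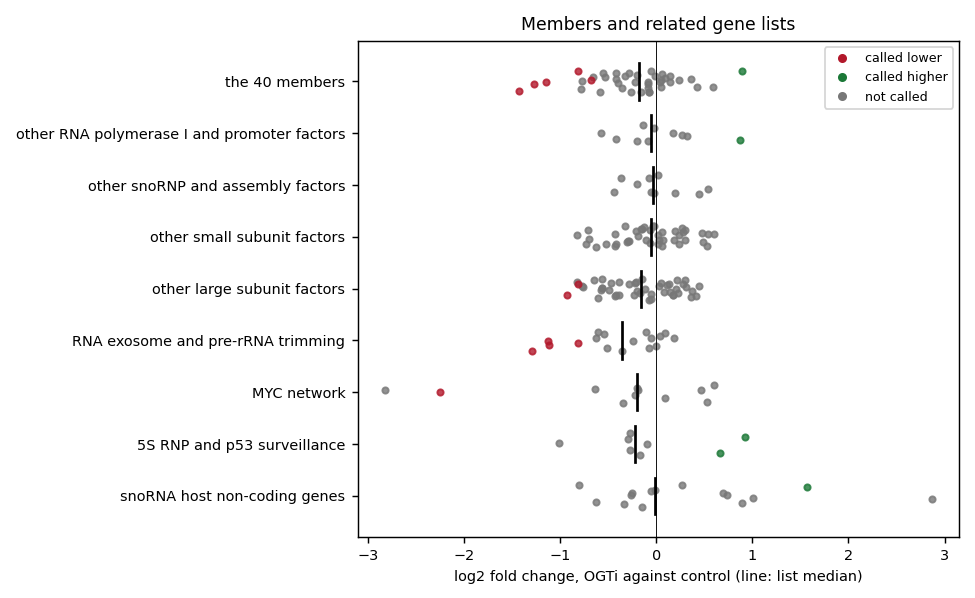
Log2 fold change in OGTi against Control of the 40 genes and of the 8 related lists (points, with vertical scatter only for visibility), with the median of each list as a bar. Red points are called lower, green called higher and grey not called. The exosome and trimming list holds 4 red points, and Mycn is the red point at -2.25.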

How the data were processed

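RNA-seq of pMF-HSCs was analysed for 4 Control and 4 OGTi libraries made from oligo dT-enriched RNA with a stranded kit. Reads were aligned by the authors with Bowtie2 2.3.5.1 and quantified with RSEM 1.3.1 on mm39 (GRCm39). The methods name GENCODE, whereas the transcript names in the tables are of RefSeq. The authors deposited, for each library, estimated (expected) counts per gene, which share ambiguous reads among genes, together with TPM values and effective lengths. Expected counts were not normalised, whereas deposited TPM values are relative to each library's own total. A further table by the authors holds DESeq2 1.36.0 fold changes and p-values and was not used.

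Expected counts were rounded to whole numbers (the 320 values of the 40 genes were already whole as deposited, checked exactly with no tolerance). Genes with a total of at least 10 counts (19963 of 40840) were tested in R 4.3.3 with edgeR 4.0.16 (TMM scaling, glmQLFit and glmQLFTest, replicate number as a block). The fit was first run on simulated data with less variation than these libraries, whose biological coefficient of variation was 0.342. That run therefore does not show how well the fit performs on these data. The replicate number pairs the samples by the study's methods, and deviations of same-numbered libraries from their group means correlated at 0.105 to 0.318, against -0.312 to 0.208 for other pairs of a Control and an OGTi library. Adjusted p-values are Benjamini-Hochberg over all genes tested, and a gene was called at 0.05 or below. SE is the log2 fold change divided by the square root of the F statistic, and levels between genes were compared as TPM. Pair ratios had 0.5 added.

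All 40 genes are named. Values of every library are given in each role group for the genes called and for the gene with the highest mean TPM (Rrs1, Myc, Mycn, Exosc8, Cdkn1a and Snhg3 were added after their values were seen), and up to 4 called genes of each related list are named by adjusted p. The members and lists were chosen with earlier results of these data known. The ribosomal protein lists and motifs were chosen after the values were seen. Alternatives were no block, DESeq2 1.42.0, upper-quartile or total scaling, other filters, limma 3.58.1 on log2(TPM + 1) and log2(TPM + 0.1), removal of the length trend, a threshold of 0.01, and leaving out each pair or library.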

Additional observations from a re-analysis of the deposited data

Results flagged for a closer look

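Within a group of 4 libraries, 1 library stood far from the other 3 in 2 of 80 gene and group combinations examined, where chance gives about 1 in 20, or 4. For Gnl3, which encodes nucleostemin, OGTi replicate 2 gave 2537.2 scaled counts while the remaining 3 OGTi libraries gave 4778.1 to 4951.8, and its Control partner was also the lowest of the controls at 2116.7. For the helicase gene Ddx10, Control replicate 4 gave 1441.4 scaled counts while the remaining 3 controls gave 884.0 to 929.2, and its OGTi partner was the highest of the OGTi libraries at 1649.4. Neither gene was called changed.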

How the results depend on the processing

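Without the replicate block 3 genes were called lower and 1 higher, and 5 related genes lower and 2 higher, with a median over the 40 genes of -0.21. Leaving out a pair, which leaves fewer samples, gave 1 to 5 genes lower and 0 to 1 higher, medians of -0.31 to -0.11, and 3 to 8 related genes lower and 1 to 3 higher. Leaving out a single library in the unblocked fit, where the 40 genes alone were counted, gave 1 to 3 lower and 0 to 1 higher. Without pair 3, 1 gene was lower (Polr1b) and 0 higher, and without pair 4, 2 were lower (Polr1a and Utp20) and 0 higher. Upper-quartile scaling called 4 genes lower, without Bysl. DESeq2, upper-quartile scaling and edgeR's expression filter each called 2 genes higher, the second being Nop16. DESeq2 called 9 related genes higher (5.66%, next to 13.8% of all genes). Library totals alone gave 20 related genes lower and 1 higher, no filter gave 7 of the 40 genes and 12 related genes lower, and removal of the length trend gave 20 related genes lower. On TPM, 8 genes were lower and 0 higher with either pseudocount, the medians were -0.50 and -0.51 with 1 and 0.1 added, and 33 and 34 related genes were lower and 2 higher. At a threshold of 0.01, 2 genes were lower (Polr1a and Utp20) and 0 higher, with 4 and 1 related genes. The share called over all genes was not counted for fits without the block or the filter, or with upper-quartile scaling or edgeR's filter. Nor was it counted at a threshold of 0.01 or with pairs or libraries left out, so those counts have no background beside them. The cause of these shifts was not tested. The median of all genes was 0.01 with TMM, 0.13 with upper-quartile scaling, -0.19 with totals and -0.10 and -0.23 on TPM.

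Over 14 alternatives Polr1a and Utp20 were called in 13, Polr1b in 11, Ubtf and Dkc1 in 9 and Bysl in 8, always in the direction reported. Of the 34 genes not called, 28 were called in no alternative and 6 in some (Nop16, Nhp2, Noc4l, Ddx18, Tsr1 and Mybbp1a), and 17 changed sign at least once while staying above the threshold, so no direction is claimed for them.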
